A study of Mus musculus with 18 samples.

Results

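The cubilin endocytic receptor complex is represented here by 4 genes, Cubn, Amn, Lrp2 and Dab2, out of 22180 genes that had a probe set with 1 gene symbol. The genes were listed by symbol, chosen by their known place in the complex together with measured log2 levels of these same arrays, in which Cubn at day 0 and Dab2 at day 21 were already seen to differ by genotype. Those differences are given as descriptions only. Day steps of Cubn from day 0 and of Dab2 to day 21 use some of the same arrays. Their p-values are not free of that choice. Where a symbol had several probe sets, that of highest mean was to be used, but each of the 4 had only 1. All 22180 genes entered the tests with 1 probe set each and no filter on low signal, so all 4 were tested. Their means over all arrays were 7.51 log2 for Cubn, 5.94 for Amn, 7.26 for Lrp2 and 7.28 for Dab2, which lay above those of 93.0%, 68.2%, 90.7% and 90.9% of all genes.

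RNA came from mouse embryonic stem cells (strain F1, C57Bl6N x 129Sv) labelled Pax7-/-, the mutant genotype, or Pax7+/+, the wild type. The Pax7 protein is a transcription factor with a paired domain, known from muscle stem cells and the neural crest. Each genotype was sampled as undifferentiated cells kept with LIF (day 0), as embryoid bodies (day 7) and as outgrowths of embryoid bodies (day 21), and the last pair of stages was cultured without LIF and with RA and ITS. Each of the 6 groups had 3 Affymetrix arrays, labelled as biological replicates. How the Pax7 allele was altered, and whether more than 1 clone was used, is not given in the sources used here.

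Cubilin is a large receptor of the apical cell surface that has no membrane-spanning segment of its own. Amnionless, the product of Amn, anchors it in the membrane and brings it to the surface, and megalin, the product of Lrp2, is a membrane-spanning receptor of the LDL receptor family that is taken up together with it. Dab2 is the adaptor that joins the cytoplasmic tails of such receptors to clathrin. In the mouse embryo the complex is known from the visceral endoderm, where it takes up maternal nutrients such as carrier-bound cobalamin, apolipoproteins and vitamin-binding proteins, and in the adult it is known from the kidney proximal tubule.

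Of the complex, Cubn lies at chr2:13276338-13491876 on the minus strand (GRCm38.p6), Lrp2 at chr2:69424335-69586029 on the minus strand, Amn at chr12:111271096-111276426 on the plus strand and Dab2 at chr15:6299788-6440715 on the plus strand. RefSeq gives 1 start site each for the first 3 and a pair for Dab2. The 250 bases before the start of Cubn and Lrp2, the pair whose values went most closely together, and before both starts of Dab2 are shown because they differ in base composition. CpG dinucleotides are in capitals.
Cubn, chr2:13491877-13492126, minus strand: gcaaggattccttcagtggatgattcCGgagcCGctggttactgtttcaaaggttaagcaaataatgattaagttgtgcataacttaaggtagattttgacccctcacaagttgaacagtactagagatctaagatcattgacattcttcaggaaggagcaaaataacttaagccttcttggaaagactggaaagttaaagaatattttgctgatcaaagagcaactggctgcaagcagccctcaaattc
Lrp2, chr2:69586030-69586279, minus strand: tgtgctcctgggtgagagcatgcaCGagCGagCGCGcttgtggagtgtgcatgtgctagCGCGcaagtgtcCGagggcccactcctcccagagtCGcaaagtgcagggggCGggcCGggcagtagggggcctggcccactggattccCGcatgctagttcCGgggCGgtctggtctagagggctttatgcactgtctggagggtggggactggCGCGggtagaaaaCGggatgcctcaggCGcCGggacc
Dab2, upstream start, chr15:6299539-6299788, plus strand: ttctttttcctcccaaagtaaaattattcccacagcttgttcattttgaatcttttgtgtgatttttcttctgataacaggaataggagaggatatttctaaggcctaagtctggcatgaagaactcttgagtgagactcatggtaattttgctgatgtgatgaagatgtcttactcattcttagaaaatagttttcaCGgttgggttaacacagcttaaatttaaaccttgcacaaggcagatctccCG
Dab2, downstream start, chr15:6386498-6386747, plus strand: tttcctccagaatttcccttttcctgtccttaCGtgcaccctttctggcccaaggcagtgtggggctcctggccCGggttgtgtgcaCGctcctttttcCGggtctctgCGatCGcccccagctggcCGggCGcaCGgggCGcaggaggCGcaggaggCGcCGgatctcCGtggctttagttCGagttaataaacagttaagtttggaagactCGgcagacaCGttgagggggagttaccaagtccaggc
The Cubn stretch held 39.6% G or C and 2 CpG, and the upstream Dab2 stretch 36.8% and 2. Lrp2 had 66.4% and 18 CpG, the downstream Dab2 stretch 60.0% and 17, and Amn 61.2% and 11. Over 32851 mouse promoters the medians were 52.4% and 6. On either strand, AGATAA, which is read by endoderm factors of the Gata4 and Gata6 type, TGTTTAC, which is read by FOX factors, and CAAAGTC, the half-site of HNF4, were found in none of the 5 stretches. The half-site of HNF1, GTTAAT, was found in 1, 65 to 60 bases before the downstream Dab2 start. In the same window of all 32851 promoters, the GATA letters occurred in 3281, the FOX letters in 1040 (3.2%), the HNF4 letters in 1262 (3.8%) and the HNF1 letters in 2113 (6.4%). A match is a description of the letters only, and which start a probe set reads is not given. Only these exact letters were searched and no variants of them, so a missing match does not show that a promoter lacks sites for a factor.

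Not all arrays had the same spread. The SD across all probe sets of an array lay at 1.37 to 1.45 log2 in 10 arrays, called narrow here, and at 1.79 to 1.85 log2 in the other 8, called wide. Array medians were 4.91 to 4.97 log2 on narrow arrays and 4.55 to 4.68 on wide ones. Pearson correlations over probe sets, which are not independent replicates, were 0.914 to 0.990 within a set and 0.653 to 0.789 between sets. All 6 groups held arrays of both sets. Wide minus narrow came to 1.99 log2 for Cubn, 2.17 for Lrp2, 1.26 for Dab2 and -0.34 for Amn, against a median of -0.10 over all genes. Values are therefore read within each set, and tests are from limma with the array set as a block, with Benjamini-Hochberg adjustment over all 22180 genes and a threshold of adjusted p under 0.05. Without the block limma called 0 of the 4 genes in each of the 10 comparisons made, so each call below rests on it. The labels call the replicates biological but do not say what was separate, so p-values measure only how these samples scatter.

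**Figure D1:**
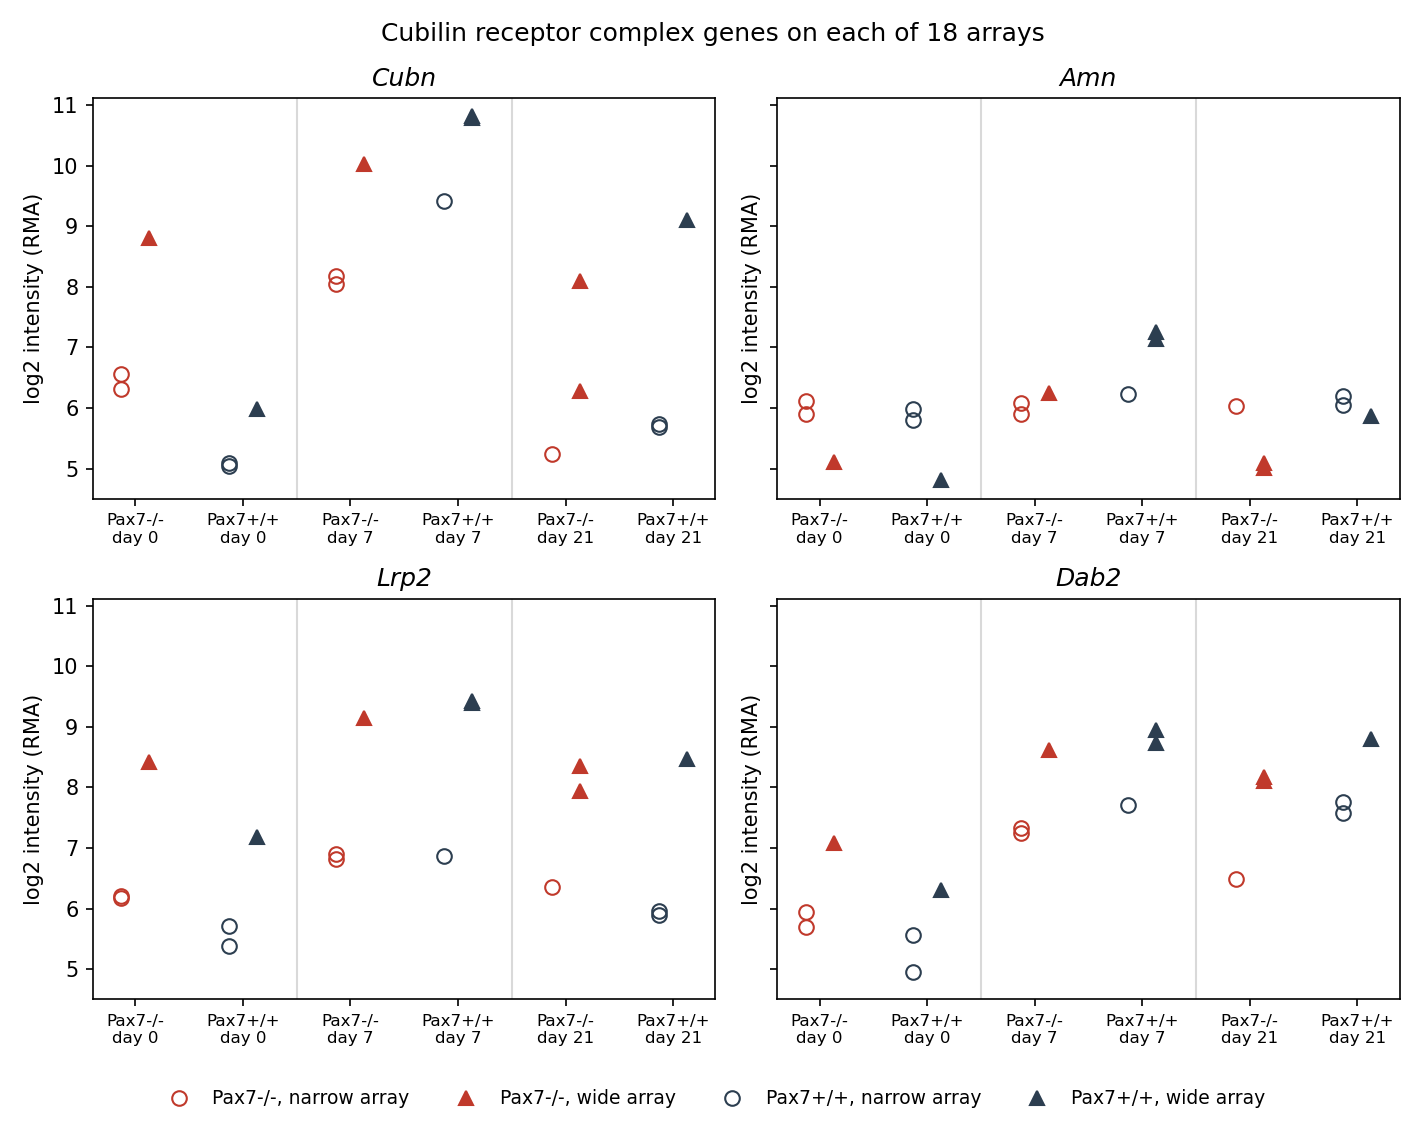
Log2 intensity (vertical axis) of Cubn, Amn, Lrp2 and Dab2 on each of 18 arrays, by day and genotype (horizontal axis). Open circles are narrow arrays and filled triangles wide arrays, red for Pax7-/- and dark blue for Pax7+/+. Cubn is highest at day 7 in both genotypes and both sets, while Amn moves little on narrow arrays, where all 10 values lie between 5.81 and 6.23.

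Cubn, the ligand-binding receptor of the complex, had the widest range of the 4. At day 0 it read 6.31 and 6.56 log2 on narrow and 8.81 on wide Pax7-/- arrays, against 5.05 and 5.09 on narrow and 5.99 on wide Pax7+/+ arrays. At day 7 it read 8.04 and 8.18 on narrow and 10.02 on wide Pax7-/- arrays, against 9.42 on narrow and 10.79 and 10.81 on wide Pax7+/+ arrays. At day 21 it read 5.24 on narrow and 8.10 and 6.27 on wide Pax7-/- arrays, against 5.69 and 5.74 on narrow and 9.10 on wide Pax7+/+ arrays. Within each set Pax7-/- lay above Pax7+/+ at day 0 and below it at days 7 and 21, with no overlap. With 1 or 2 arrays of a genotype in a set, such separation in the same order in both sets is common, and 24.8%, 32.1% and 36.1% of all genes showed it at days 0, 7 and 21. At all 3 days, with either genotype above on each day, 978 genes (4.4%) showed it. As the Cubn difference at day 0 was known when the genes were listed, nothing is read from this share. The wide Pax7+/+ array stood much further above its day 0 counterpart at day 21 (9.10 against 5.99) than the narrow ones did. The 2 wide Pax7-/- arrays of day 21 also lay far apart.

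With 1 fitted set difference per gene taken out, Cubn averaged 7.56 ± 0.26, 9.08 ± 0.08 and 6.21 ± 0.91 log2 in Pax7-/- at days 0, 7 and 21, and 5.71 ± 0.62, 10.01 ± 0.35 and 7.17 ± 0.81 in Pax7+/+ (SD, n = 3 each). The gap between the sets was not the same in each group. In Pax7+/+, narrow and wide means of Cubn were 5.07 and 5.99 at day 0 and 5.71 and 9.10 at day 21. Set-adjusted means, SDs and their order therefore also carry the mix of sets in a group, for Cubn and the genes below. In order of level, Pax7+/+ at day 7 came first and Pax7-/- at day 7 second, and neither overlapped with its lower neighbour. The other 4 groups followed as Pax7-/- day 0, Pax7+/+ day 21, Pax7-/- day 21 and Pax7+/+ day 0, each overlapping with the next. The share of all genes with such gaps between neighbours was not counted. Nothing is read from these gaps, here or for the genes below.

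Amn, whose product anchors cubilin, differed between groups mainly on wide arrays. At day 0 it read 5.91 and 6.12 log2 on narrow and 5.10 on wide Pax7-/- arrays, against 5.99 and 5.81 on narrow and 4.81 on wide Pax7+/+ arrays. At day 7 it read 5.90 and 6.09 on narrow and 6.24 on wide Pax7-/- arrays, against 6.23 on narrow and 7.14 and 7.25 on wide Pax7+/+ arrays. At day 21 it read 6.04 on narrow and 5.02 and 5.09 on wide Pax7-/- arrays, against 6.05 and 6.19 on narrow and 5.86 on wide Pax7+/+ arrays. The 2 wide Pax7+/+ arrays of day 7 were the highest of all 18, and the genotypes overlapped on narrow arrays at day 0. Set-adjusted means were 5.66 ± 0.35, 6.02 ± 0.35 and 5.44 ± 0.37 in Pax7-/- at days 0, 7 and 21, and 5.48 ± 0.44, 6.93 ± 0.75 and 5.98 ± 0.08 in Pax7+/+. Neighbours in the order of these levels all overlapped.

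Lrp2, or megalin, the membrane-spanning partner of cubilin, was also highest at day 7 within each genotype and set. At day 0 it read 6.22 and 6.18 log2 on narrow and 8.42 on wide Pax7-/- arrays, against 5.71 and 5.38 on narrow and 7.19 on wide Pax7+/+ arrays. At day 7 it read 6.82 and 6.90 on narrow and 9.15 on wide Pax7-/- arrays, against 6.87 on narrow and 9.43 and 9.39 on wide Pax7+/+ arrays. At day 21 it read 6.36 on narrow and 7.95 and 8.36 on wide Pax7-/- arrays, against 5.96 and 5.90 on narrow and 8.46 on wide Pax7+/+ arrays. The genotypes were apart in both sets at day 0, overlapped on narrow arrays at day 7, and lay in opposite order in the sets at day 21. Set-adjusted means were 7.30 ± 0.03, 7.99 ± 0.08 and 7.19 ± 0.30 in Pax7-/- at days 0, 7 and 21, and 6.46 ± 0.35, 8.20 ± 0.21 and 7.14 ± 0.21 in Pax7+/+. The day 7 groups overlapped with each other and not with the next, Pax7-/- at day 0. That group and both of day 21 overlapped in turn, and Pax7+/+ at day 0 lay below all others without overlap. As for Cubn, the share of all genes with such gaps was not counted.

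Dab2, the clathrin adaptor, had much the same level at days 7 and 21 in Pax7+/+. At day 0 it read 5.70 and 5.95 log2 on narrow and 7.08 on wide Pax7-/- arrays, against 4.96 and 5.57 on narrow and 6.32 on wide Pax7+/+ arrays. At day 7 it read 7.34 and 7.26 on narrow and 8.61 on wide Pax7-/- arrays, against 7.71 on narrow and 8.74 and 8.94 on wide Pax7+/+ arrays. At day 21 it read 6.49 on narrow and 8.17 and 8.10 on wide Pax7-/- arrays, against 7.76 and 7.58 on narrow and 8.81 on wide Pax7+/+ arrays. Within each set the genotypes lay in the same order as for Cubn, with no overlap, which for any 1 day is as common among all genes as given there. At all 3 days 4.4% of all genes were apart, with either genotype above on each day. The Dab2 difference at day 21 was known when the genes were listed, so nothing is read from this share. Set-adjusted means were 6.45 ± 0.12, 7.95 ± 0.05 and 7.38 ± 0.23 in Pax7-/- at days 0, 7 and 21, and 5.83 ± 0.32, 8.25 ± 0.12 and 8.26 ± 0.11 in Pax7+/+. Pax7+/+ at day 21 and at day 7 overlapped at the top. Below them came Pax7-/- at days 7, 21 and 0 and Pax7+/+ at day 0, with no overlap between neighbours. How many of all genes have such gaps was not counted, so nothing is read from them.

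From day 0 to day 7 all 4 genes rose in Pax7+/+, where 5.69% of all genes were called, 2.54% higher and 3.14% lower. Cubn rose 19.7-fold (4.30 ± 0.43 log2, SE, adjusted p = 1.75e-05), Dab2 5.39-fold (2.43 ± 0.15, adjusted p = 2.77e-07), Lrp2 3.35-fold (1.75 ± 0.18, adjusted p = 2.40e-05) and Amn 2.73-fold (1.45 ± 0.33, adjusted p = 0.0153). The median of the 4 was 2.09 log2, against -0.0013 over all genes. The Cubn step uses day 0 arrays in which a difference was known when the genes were listed. Its p in either genotype is not free of that choice. The calls for Cubn, Dab2 and Lrp2 held when any 1 array of the compared groups was left out. That for Amn did not hold without Pax7+/+ day 0 replicate 3 (1.10 log2, adjusted p = 0.149) or without Pax7+/+ day 7 replicates 2 (1.27, adjusted p = 0.0758) or 3 (1.22, adjusted p = 0.0816). On narrow and wide arrays Amn differed by 0.33 and 2.39 log2.

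In Pax7-/- 2 of the 4 genes rose over the same step, where 3.86% of all genes were called, 2.05% higher and 1.82% lower. Dab2 rose 2.81-fold (1.49 ± 0.15 log2, SE, adjusted p = 3.39e-05) and Lrp2 1.61-fold (0.69 ± 0.18, adjusted p = 0.0422). Cubn differed by 1.52 ± 0.43 log2 (adjusted p = 0.0612) and Amn by 0.37 ± 0.32 (adjusted p = 0.606). Dab2 held its call with any 1 array of the compared groups left out, while the call for Lrp2 was lost each time, at adjusted p = 0.0840 to 0.169. Cubn stayed uncalled with any 1 array of the compared groups left out, at adjusted p = 0.121 to 0.160. Its adjusted p was under 0.05 in 7 of the 12 other alternative fits. Among them were quantile normalization (1.65 log2, adjusted p = 0.00528) and narrow arrays alone (1.68).

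**Figure D2:**
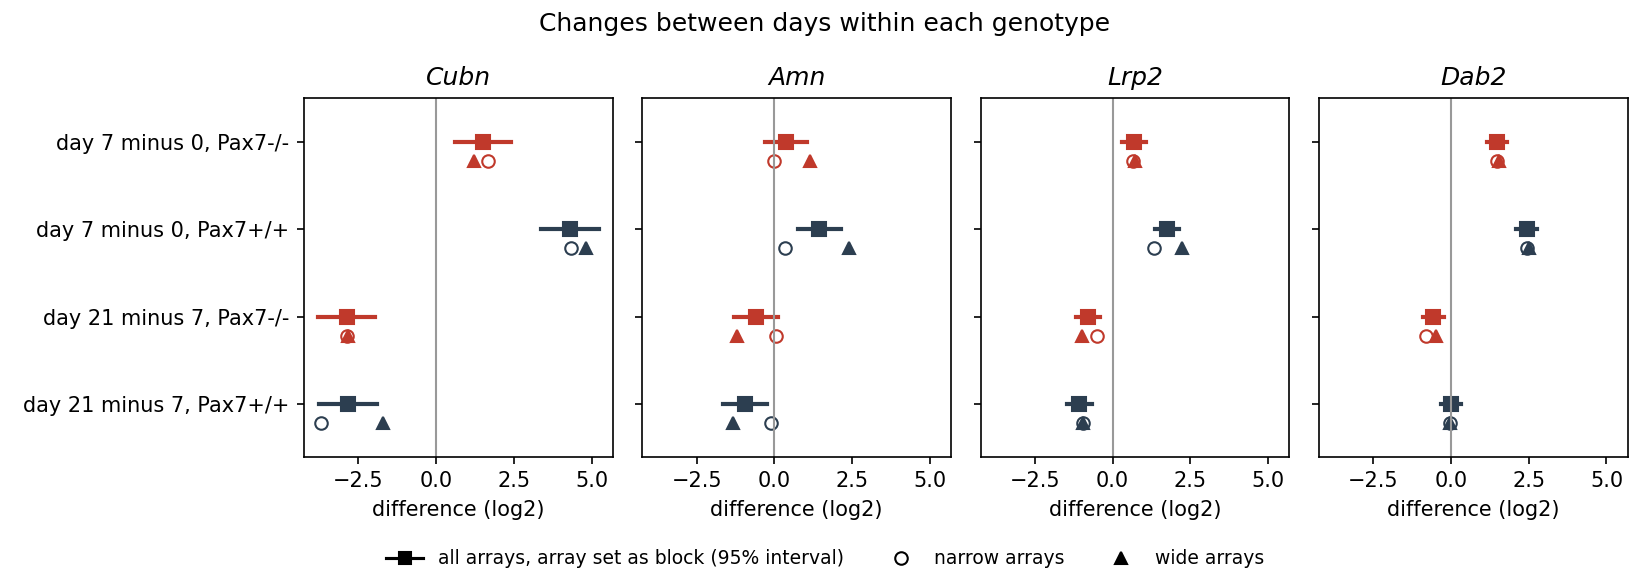
Log2 difference (horizontal axis) between consecutive days within each genotype, Pax7-/- in red above Pax7+/+ in dark blue, for each gene. Squares with lines are the estimate over all arrays with its 95% interval, open circles narrow arrays and triangles wide arrays. The day 0 to day 7 estimate is larger in Pax7+/+ for each of the 4 genes, for Cubn 1.52 log2 in Pax7-/- against 4.30 in Pax7+/+. Limma called none of these gaps between the genotypes. The gap for Cubn holds the day 0 difference known when the genes were listed.

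From day 7 to day 21 Cubn fell in both genotypes and Lrp2 in Pax7+/+. In Pax7-/- 1 of the 4 genes fell, where 0.834% of all genes were called, 0.379% lower, and in Pax7+/+ 2, where 5.85% were called, 4.48% lower. Cubn was 7.32-fold lower at day 21 in Pax7-/- (-2.87 ± 0.43 log2, SE, adjusted p = 0.00498) and 7.13-fold lower in Pax7+/+ (-2.83 ± 0.43, adjusted p = 0.00105), and both calls held with any 1 array of the compared groups left out. On narrow and wide arrays this came to -2.87 and -2.83 log2 in Pax7-/-, and to -3.70 and -1.70 in Pax7+/+, where wide arrays alone gave adjusted p = 0.102. Lrp2 differed by -0.79 ± 0.18 log2 in Pax7-/- (adjusted p = 0.0553) and was 2.10-fold lower in Pax7+/+ (-1.07 ± 0.18, adjusted p = 0.00246). Amn differed by -0.58 ± 0.33 (adjusted p = 0.528) and -0.95 ± 0.33 (adjusted p = 0.113), and Dab2 by -0.57 ± 0.15 (adjusted p = 0.110) and 0.00 ± 0.15 (adjusted p = 0.995), in Pax7-/- and Pax7+/+. For Lrp2 in Pax7-/- the adjusted p was under 0.05 after each other scaling tried and with either filter on dim genes. The Dab2 steps use day 21 arrays in which a difference was known when the genes were listed. Their p-values are not free of that choice.

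At day 0, in undifferentiated cells, Cubn and Lrp2 read higher on Pax7-/- arrays than on Pax7+/+ arrays of the same set. Limma called these 2 of the 4 genes, where 1.28% of all genes were called, 0.388% higher and 0.893% lower. Cubn was 3.61-fold higher (1.85 ± 0.43 log2, SE). That difference was among the earlier results known when the genes were listed, so it is given as a description with no p, and nothing is read from a count that holds it. Lrp2 was 1.80-fold higher (0.84 ± 0.18, adjusted p = 0.0285). Dab2 differed by 0.63 ± 0.15 (adjusted p = 0.0556), and passed with median centring (adjusted p = 0.0475) and among genes at or above the median (adjusted p = 0.0353), and Amn by 0.18 ± 0.32 (adjusted p = 0.892). Leaving out 1 array of the compared groups gave 1.43 to 2.05 log2 for Cubn, with none of the 6 fits calling it. For Lrp2 it gave 0.63 to 1.02 log2, and the call held without Pax7+/+ replicate 1 (adjusted p = 0.0205) and was lost in the other 5 fits, at up to adjusted p = 0.142.

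The difference at day 0 was larger on wide arrays, with 1.37 and 2.82 log2 for Cubn, 0.65 and 1.23 for Lrp2, 0.56 and 0.76 for Dab2 and 0.12 and 0.30 for Amn on narrow and wide arrays. In bulk RNA, more cells of a type and more RNA per cell cannot be told apart. Beside these genes, Gata6, an endoderm transcription factor, was higher in Pax7-/- at day 0 by 1.26 ± 0.27 log2 (adjusted p = 0.0300), the 1 of 11 visceral endoderm transcription factors that passed. Of 18 visceral endoderm products 0 were higher and Apoe was lower (-0.73 ± 0.15, adjusted p = 0.0281). Of 14 parietal endoderm genes 3 were higher and 0 lower, Lama1 by 2.38 ± 0.20, Lamb1 by 1.00 ± 0.22 and Sparc by 0.53 ± 0.12. The mean of that list over each array was 7.37 to 7.51 log2 in Pax7-/- and 6.91 to 7.33 in Pax7+/+, set-adjusted, and all 14 had group means above the array median in both. The part of these endoderm genes in the Cubn and Lrp2 difference was not tested. Of 12 pluripotency genes 0 passed at day 0, with set-adjusted list means of 7.70 to 7.96 in Pax7-/- and 7.64 to 7.79 in Pax7+/+.

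**Figure D3:**
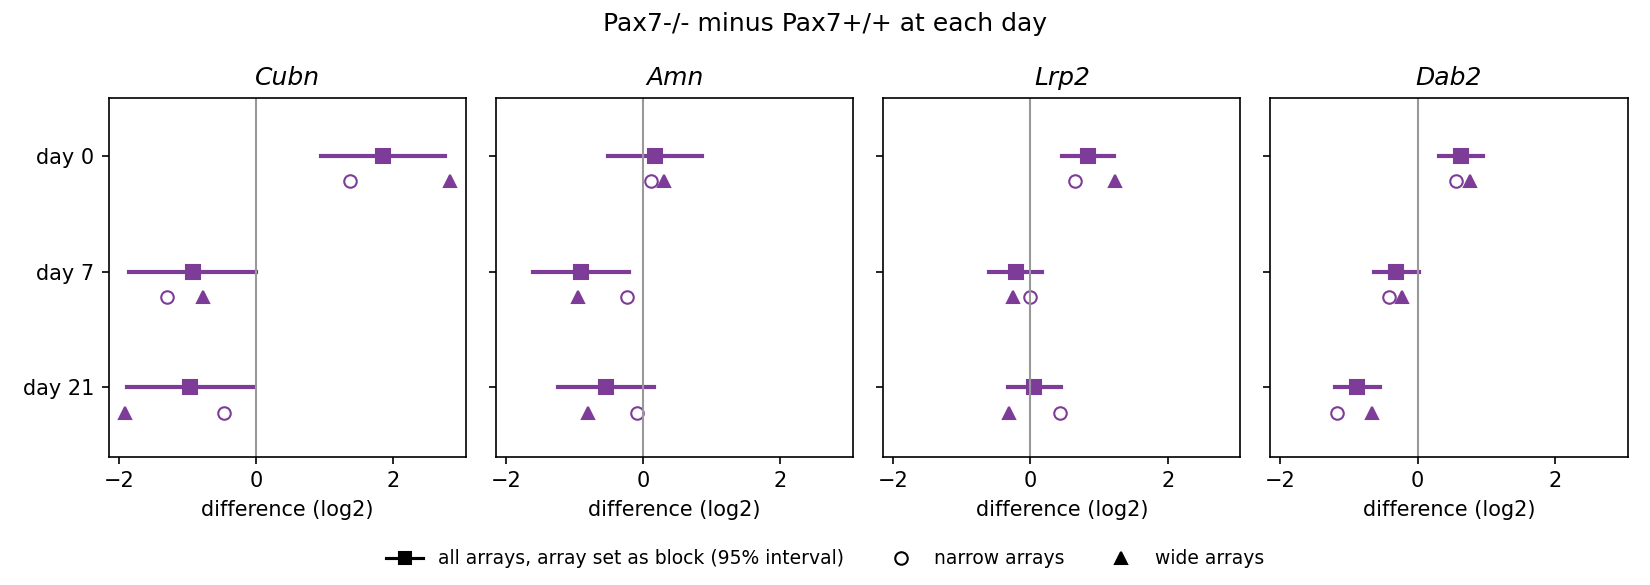
Pax7-/- minus Pax7+/+ in log2 (horizontal axis) at days 0, 7 and 21 for each gene. Squares with lines are the estimate over all arrays with its 95% interval, open circles narrow arrays and triangles wide arrays. For Cubn, Dab2 and Amn the estimate is above 0 at day 0 (1.85, 0.63 and 0.18). For these it is below 0 at days 7 and 21 (-0.96, -0.88 and -0.54 at day 21). For Lrp2 it is 0.84, -0.22 and 0.06 at days 0, 7 and 21.

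At day 7 none of the 4 genes passed between genotypes in limma, where 0.627% of all genes were called, 0.307% of all lower. Pax7-/- minus Pax7+/+ was -0.93 ± 0.43 log2 for Cubn (SE, adjusted p = 0.497), -0.91 ± 0.33 for Amn (adjusted p = 0.304), -0.22 ± 0.18 for Lrp2 (adjusted p = 0.805) and -0.31 ± 0.15 for Dab2 (adjusted p = 0.546). At an unadjusted p under 0.05 limma had 2 of the 4, Cubn and Amn, and 2209 of all genes. The 95% intervals ran from -1.85 to -0.0064 log2 for Cubn, -1.60 to -0.21 for Amn, -0.60 to 0.17 for Lrp2 and -0.64 to 0.02 for Dab2. Without Pax7+/+ day 7 replicate 1, the narrow array of that group, Amn came to -1.51 log2 with adjusted p = 0.0113. On the same day limma called 1 of 22 genes of the receptor chaperone, adaptors and clathrin coat lower in Pax7-/- and 0 higher. It was the chaperone gene Lrpap1 (-0.53 ± 0.11, adjusted p = 0.0325), whose product escorts LDL family receptors out of the endoplasmic reticulum.

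At day 21 Dab2 was lower in Pax7-/- than in Pax7+/+, the 1 of 4 genes that was called, where 4.89% of all genes were called and 1.07% called lower. The difference was -0.88 ± 0.15 log2 (SE), or 1.84-fold, with -1.18 on narrow and -0.67 on wide arrays. It too was known when the genes were listed, so it is given with no p and nothing is read from the count of 1. It ran from -0.96 to -0.70 with any 1 array of the compared groups left out. Cubn differed by -0.96 ± 0.43 (adjusted p = 0.261), Amn by -0.54 ± 0.33 (adjusted p = 0.448) and Lrp2 by 0.06 ± 0.18 (adjusted p = 0.932), and for Lrp2 the sets had opposite signs, 0.43 on narrow and -0.31 on wide arrays. Of the 22 genes of the receptor chaperone, adaptors and clathrin coat, limma called 1 lower and 1 higher. Lrpap1 was lower as at day 7 (-0.54 ± 0.11, adjusted p = 0.00645), and Ap2b1, a subunit of the clathrin adaptor complex, was higher (0.65 ± 0.12, adjusted p = 0.00533).

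Marker genes of several cell types differed between the genotypes at day 21 as well. Of all genes 4.89% were called on that day, 3.82% higher and 1.07% lower in Pax7-/-. Of 14 parietal endoderm genes 6 were lower and 0 higher in Pax7-/-, with Nid1 at -1.52 ± 0.36 log2, Lamb1 at -1.32 ± 0.22 and Lama1 at -1.22 ± 0.20. Set-adjusted list means were 8.37 to 8.78 log2 in Pax7-/- and 9.19 to 9.33 in Pax7+/+. Of 12 fibroblast genes 3 were lower and 0 higher (Pdgfra, Dcn and Col5a1, by -1.26 to -0.84), with list means of 6.10 to 6.84 in Pax7-/- and 6.77 to 7.54 in Pax7+/+. Of 12 macrophage genes 0 passed, and 10 had a group mean below the array median in Pax7-/- and 7 in Pax7+/+. Of 18 visceral endoderm products 0 passed, with a median of -0.62 log2 against -0.01 over all genes. Of 11 visceral endoderm factors 1 was higher and 0 lower, Otx2 by 1.24 ± 0.27 (adjusted p = 0.0120), with a median of -0.10. Of 11 neural tube progenitor genes 3 were higher and 0 lower, Sox1 by 1.76 ± 0.26, Sox2 by 1.41 ± 0.21 and Sox3 by 0.98 ± 0.27. Of 12 pluripotency genes 2 were higher, Sox2 and Nanog (1.37 ± 0.33), and Klf4 was lower (-1.20 ± 0.16). The part of these cell types in the Dab2 difference was not tested.

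The genotype difference of Cubn, Dab2 and Amn had opposite signs at day 0 and day 21, for Amn 0.18 and -0.54 log2. That of Lrp2 stayed positive, at 0.84 and 0.06. Limma did not call it for Cubn at day 21 (adjusted p = 0.261), Dab2 at day 0 (adjusted p = 0.0556) or Amn at either day. From day 0 to day 21 the genotype difference changed by -2.82 ± 0.61 log2 for Cubn and -1.51 ± 0.22 for Dab2 (SE). Of all genes 1.86% were called for this change, 0.356% in that direction and 1.5% in the other. As both changes contain a difference known when the genes were listed, they are descriptions. The change was -0.79 ± 0.25 for Lrp2 (adjusted p = 0.147) and -0.72 ± 0.46 for Amn (adjusted p = 0.547). From day 0 to day 7 the change was -2.78 ± 0.61 log2 for Cubn, again a description as it holds the day 0 difference, and -1.08 ± 0.46 for Amn (adjusted p = 0.462), -1.06 ± 0.25 for Lrp2 (adjusted p = 0.0927) and -0.94 ± 0.22 for Dab2 (adjusted p = 0.0818). None of the 4 passed in limma, where 0.482% of all genes did. Amn, Lrp2 and Dab2 had an unadjusted p under 0.05, as did 2095 of all genes. The change was negative in both sets for each gene. Lrp2 passed after quantile normalization (-1.21, adjusted p = 0.0183), after scaling to the same SD (-0.98, adjusted p = 0.0381) and on wide arrays alone (-1.49, adjusted p = 0.0491), Amn on wide arrays alone (-1.25, adjusted p = 0.0374) and Dab2 among genes at or above the median (adjusted p = 0.0495). From day 7 to day 21 none passed in limma (0.911% of all genes did, 0.721% upward), and Dab2 came to -0.57 ± 0.22, a description as it holds the day 21 difference.

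The label of visceral endoderm was set against its markers. From day 0 to day 7, 3 of 11 visceral endoderm transcription factors rose in Pax7+/+, Gata6 by 3.17 ± 0.28 log2, Sox7 by 2.30 ± 0.32 and Gata4 by 1.64 ± 0.36, and in Pax7-/- Gata6 alone (1.81 ± 0.27). Of 18 products 3 rose in Pax7-/-, the fetal serum protein gene Afp (2.99 ± 0.62), Gpc3 (2.37 ± 0.24) and Apoa1 (2.07 ± 0.52). In Pax7+/+ 3 rose, Gpc3 by much the same (2.31 ± 0.25), Rhox5 and Cited1. Medians were 0.71 log2 in Pax7-/- and 0.86 in Pax7+/+ for the factors, and 0.68 and 0.86 for the products, against -0.02 and -0.0013 over all genes. Of parietal endoderm genes 9 of 14 rose in Pax7-/- and 11 of 14 in Pax7+/+. Of all genes 2.05% rose in Pax7-/- and 2.54% in Pax7+/+. From day 7 to day 21 the factor list had 1 gene lower in Pax7+/+, Sox7 (-1.46 ± 0.32, adjusted p = 0.0130), and 1 higher in Pax7-/-, Otx2, which is also a forebrain factor (1.497 ± 0.27, adjusted p = 0.0136). Of the products Lefty1 was lower in Pax7+/+ (-1.22 ± 0.34, adjusted p = 0.0470) and 0 passed in Pax7-/-. In Pax7+/+ 3 of 14 parietal genes rose over this step (Nid1, Lamc1 and Serpinh1). Over the same step 1.37% of all genes were called higher and 4.48% lower in Pax7+/+. In Pax7-/- 0.455% were called higher and 0.379% lower. Of 13 genes of the kidney proximal tubule, the other known site of the complex, 0 were higher and at most 1, Slc7a7, was lower in any comparison of days or genotypes, and 8 or 9 had a group mean below the array median in each group.

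The other genes of the pathway were read against the share of all genes called from day 0 to day 7, 3.86% in Pax7-/- and 5.69% in Pax7+/+. Of 22 genes of the receptor chaperone, adaptors and clathrin coat, 1 was higher and 0 lower from day 0 to day 7 in Pax7-/-, and 2 were higher and 1 lower in Pax7+/+. Ap2a2 rose by 0.67 ± 0.12 log2 in Pax7-/- and 0.69 ± 0.12 in Pax7+/+, Lrpap1 rose by 0.58 ± 0.11 in Pax7+/+, and Ap2m1 fell there by 0.50 ± 0.13. Medians were 0.10 and 0.15 log2, and 1 of 22 is near the share of all genes. Of 15 endosome and recycling genes 1 rose in each genotype, Clcn5, whose product is the endosomal chloride and proton exchanger of the proximal tubule (1.12 ± 0.17 in Pax7-/- and 1.16 ± 0.17 in Pax7+/+). Of 12 other LDL receptor family genes 0 rose in either genotype, and Lrp1 fell in Pax7+/+ (-1.25 ± 0.14, adjusted p = 5.12e-05). Lrp1 was also lower in Pax7-/- than in Pax7+/+ at day 0 (-0.77 ± 0.14, adjusted p = 0.00962), where Lrp2 was higher.

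Ligands and the cobalamin route were read against the same shares. Of 17 cubilin and megalin ligand genes, 2 rose and 1 fell from day 0 to day 7 in Pax7-/-, and 1 rose and 2 fell in Pax7+/+, with medians of 0.24 and 0.19 log2. Tcn2, which encodes the cobalamin carrier transcobalamin, rose by 0.70 ± 0.14 in Pax7-/- and 0.64 ± 0.14 in Pax7+/+. The growth factor gene Bmp4 fell by 1.22 ± 0.25 in Pax7-/- and by 0.92 ± 0.25 in Pax7+/+. Of 13 genes of cobalamin uptake and use, 2 rose in Pax7-/- (Tcn2 and Lmbrd1, which encodes a lysosomal cobalamin exporter component) and 1 in Pax7+/+. Between genotypes 0 of these 13 passed in limma at each of the 3 days.

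With each set's mean subtracted from each gene, over all 18 arrays, Cubn and Lrp2 had a Pearson correlation of 0.879, with 0.876 on narrow and 0.887 on wide arrays. Of all genes 7 had a higher correlation with Cubn. The other pairs ran from 0.529 for Amn and Dab2 to 0.741 for Amn and Lrp2. Pairs with Amn had 0.385 to 0.561 on narrow and 0.748 to 0.898 on wide arrays. These correlations describe arrays that share 3 days and 2 genotypes, and carry no p.

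The 5 genes most like Cubn by that measure were Npl, which encodes a sialic acid lyase (0.929), Sec61a1, the protein channel of the endoplasmic reticulum (0.928), Sec23a, a coat subunit of vesicles that leave it (0.905), Sox7 (0.895) and the lysosomal protease gene Lgmn (0.892). For Lrp2 they were Npl (0.910), Sox7 (0.898), the mitochondrial enzyme gene Acat1 (0.897), the peroxisomal enzyme gene Crot (0.887) and Cyp26a1, which encodes a retinoic acid hydroxylase (0.880). Npl and Sox7 stood on both lists. Dab2 had P4ha1, a collagen prolyl hydroxylase gene (0.972), Tfpi, a coagulation inhibitor gene (0.967), the keratin gene Krt18 (0.962) and the laminin genes Lamb1 (0.955) and Lama1 (0.952). Amn had Gata2 (0.960), Hoxb1 (0.955), Ppfibp2 (0.943), Slc44a3 (0.940) and Mtmr11 (0.934), with 0.557 to 0.812 for these on narrow arrays, where Amn hardly varied.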

How the data were processed

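Total RNA of 18 samples was measured on Affymetrix arrays, 1 per sample. The deposited files hold 1 log2 value for each probe set and array, and per the submitters' processing notes they were made with RMA and Partek, with no version or order given. Whether the arrays were summarised together is not given in the sources used here. Genotype and day in the labels gave the groups.

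A single gene symbol was listed for 23521 of the 41345 probe sets, several for 1814 and none for 16010. The probe set with the highest mean was kept per gene, which gave 22180 genes with no filter. Tests used limma 3.58.1 (R 4.3.3). Its linear model held the 6 groups and the array set as a fixed block, which left 11 residual degrees of freedom, and eBayes was run with no trend. An array was called wide if its standard deviation over probe sets exceeded 1.6 log2. Set-adjusted values are log2 intensities minus each gene's fitted set effect. That effect is a single shift per gene, so a difference of scale between the sets stays in the values. With 3 arrays against 3, no exact permutation p can fall below 0.1. The number of arrays limits the precision. The 10 comparisons, the alternatives, the gene lists and the rule for named genes (all 4 members, the 5 genes most correlated with each, and up to 3 called genes per list with the largest differences) were chosen with earlier results of these data known. Of the listed genes, those without a probe set of 1 symbol were not used here. No 2 arrays held identical values. The code was tested on simulated data with known changes. Promoter sequences are RefSeq's for GRCm38.p6, and all 4 genes matched by symbol. Gene positions are RefSeq's for the same build. Figures were drawn with matplotlib 3.10.9 in Python 3.11.15.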

Additional observations from a re-analysis of the deposited data

Results flagged for a closer look

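The change of the Pax7-/- minus Pax7+/+ difference from day 0 to day 21 was looked at for Cubn and Dab2. It is limma's interaction term, fitted with the array set included. Cubn at day 0 and Dab2 at day 21 were already known to differ when the genes were listed. Both changes are therefore descriptions with no p, and nothing is read from their being the 2 flagged. For Lrp2 and Amn the change was -0.79 ± 0.25 and -0.72 ± 0.46 log2 (SE). For Cubn the change was -2.82 ± 0.61 log2 (SE), with -1.84 on narrow and -4.73 on wide arrays, and -3.25 to -2.16 with any 1 array of the 4 groups left out. For Dab2 it was -1.51 ± 0.22 log2 (SE), with -1.74 on narrow and -1.44 on wide arrays, and -1.72 to -1.32 with 1 array left out. Without the array set in the fit the changes were -2.16 for Cubn and -1.09 for Dab2.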

How the results depend on the processing

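Of 792 values of the 4 genes under alternatives, 684 kept their direction and their side of the threshold, 41 gained a call, 44 lost one and 23 turned in sign, none of the last from a called value. Without the array set as a block, 0 of the 4 genes were called in each comparison and 0 to 15 genes over all. The counts below are of the 4 genes called. Those for the genotypes at day 0 and day 21 and for changes of the genotype difference hold a difference known when the genes were listed. They describe the fits only. Pax7-/- against Pax7+/+ at day 0 gave 3 with median centring and among genes at or above the median, where Dab2 joined, 1 with robust eBayes, 1 on wide arrays alone and 0 to 1 with 1 array left out. Day 7 gave 1 on narrow arrays, 1 on wide arrays and 0 to 1 with 1 array left out. Day 21 gave 2 on wide arrays. From day 0 to 7 in Pax7-/-, 3 were called after quantile normalization, scaling to the same SD, with both filters, with a trend and on narrow arrays, and 1 with 1 array left out. In Pax7+/+ narrow arrays gave 3 and 1 array left out 3 to 4. From day 7 to 21 in Pax7-/-, quantile normalization, median centring, scaling to the same SD and both filters on dim genes gave 2, wide arrays 3, and 1 array left out 1 to 2. In Pax7+/+ 1 array left out gave 2 to 3. The change of the genotype difference from day 0 to 7 gave 2 with quantile normalization, 1 with scaling, 1 and 2 with the filters, 1 with a trend, 1 on narrow and 2 on wide arrays, and 0 to 2 with 1 array left out. That from day 0 to 21 gave 4 on wide arrays and 1 to 2 with 1 array left out.

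Same-numbered replicates had correlations of -0.215 to 0.231 over 9 pairs, 3 of them over 0.1, so the numbers do not pair the samples. With the replicate number as a block, 1 of the 4 genes was called at day 0 (Lrp2 at adjusted p = 0.0502) and 1 for the change from day 0 to 7 (Cubn, -2.91 log2). Day 7 minus day 0 in Pax7-/- then called Cubn and not Lrp2, and no other call of the 4 genes changed. Signs turned for values near 0 or far from the threshold. For Lrp2 at day 21 wide arrays gave -0.31 log2 and 1 array left out -0.12 to 0.23. For Amn at day 0 1 array left out gave -0.13 to 0.40, and narrow arrays gave -0.018 and 0.040 for its day steps in Pax7-/-. Dab2 from day 7 to 21 in Pax7+/+ came to -0.42 without the block, -0.0068 with median centring, -0.052 with the replicate block, -0.043 on narrow and -0.034 on wide arrays, and -0.065 to 0.062 with 1 array left out. For the change of the genotype difference from day 7 to 21, Cubn gave 1.29 without the block, 0.23 with the replicate block, 0.83 on narrow arrays and -0.43 to 0.71 with 1 array left out, Dab2 gave 0.27 without the block and Lrp2 -0.049 on wide arrays. The cause was not tested. Over all genes, the 10 comparisons called 107 to 1297 genes as reported, 191 to 1528 after quantile normalization, 32 to 637 on narrow and 337 to 3222 on wide arrays, 58 to 1123 with the replicate block and 21 to 1283 with 1 array left out. Narrow arrays alone left 4 residual degrees of freedom and wide arrays 2.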
